A study of Bos taurus with 8 samples.

Results

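KRT8, KRT18, KRT19 and KRT7, the keratins of simple epithelia, were followed through bovine preimplantation development in single-cell RNA profiles. These 4 genes were chosen by name from the 18825 genes of the deposited table, with earlier results of these data known. All 4 passed the filter on low values that left 12538 genes for testing. Wildtype bovine embryos of 6, 7, 8 and 9 days after fertilization gave 286 cells with values, in 6 libraries that are numbered here 1 to 6 as in the labels. Each cell carries one of 7 classes from the authors' cell table, namely Morula (day 6, 58 cells), EB (day 7, 39 cells), MB TE (day 8, 37 cells), MB ICM (day 8, 51 cells), LB PE (day 9, 25 cells), LB TE (day 9, 31 cells) and LB EPI (day 9, 45 cells). TE stands for trophectoderm, ICM for inner cell mass, EPI for epiblast and PE for primitive endoderm, often named hypoblast in cattle; EB, MB and LB are printed as that table gives them. All groups are wildtype, and the labels name no embryo for a cell, so p-values measure the spread between these libraries, which may be technical. The 2 other libraries of the series, made after injection of a base editor, were not analysed here. The sources used here do not say how a cell got its class, and the cells classed are the cells compared here, so a test between classes of one day describes how steady a difference was over libraries and is not independent evidence that the classes differ.

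Keratins form intermediate filaments as pairs of a type I (acidic) and a type II (basic) chain, so that each filament needs a partner of both kinds. KRT8 and KRT7 are type II chains, and KRT18 and KRT19 are type I chains. In mice and humans KRT8 and KRT18 are the earliest keratins of the embryo and mark the trophectoderm, the outer epithelium of the blastocyst that later forms the placenta, and in humans KRT7 is widely used to mark placental trophoblast. The filaments are tied to cell junctions by desmosomal proteins such as desmoplakin and by linkers of the plakin family.

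In a RefSeq gene table of the assembly ARS-UCD2.0, which is not the authors' build, KRT8 and KRT18 lay on the same chromosome with 1 gene between them, and that gene was not protein coding. KRT7 lay on that chromosome too, with 34 genes between it and KRT8, and 24 of those 34 had keratin symbols. KRT19 lay on another chromosome. The member that shares a gene cluster with KRT8 and KRT18 is therefore KRT7, whose day 8 change, given below, had the opposite sign to theirs.

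Levels are printed as CPM (a gene's reads per 1000000 reads of the cell), as the mean of all cells that a library holds of a class, where these were at least 3. This gave 16 averages, 2 each for Morula, LB PE and LB TE, 3 each for MB TE, MB ICM and LB EPI, and 1 for EB. Reads per cell ran from 2633 to 747345, with a median of 39210 in LB PE against 196521 in LB TE and 196981 in LB EPI. All 48 cell barcodes were shared by at least 2 libraries and 46 of them by all 6, so barcodes are not unique to a library. The class labels could be set against lists of 10 marker genes each. The summed trophectoderm markers (CDX2, GATA3, DAB2, PLAC8 and others) ran from 4840 to 6107 CPM in MB TE and from 6988 to 8631 in LB TE, against 685.6 to 842.0 in MB ICM and 458.5 to 732.0 in LB EPI. The summed hypoblast markers (FN1, PDGFRA, GATA6 and others) were at 5928 to 6486 CPM in LB PE, but at 3987 to 4380 in MB ICM too, and SOX17 was at 0 in both LB PE averages. The summed epiblast markers, of which 9 of 10 were in the table, were at 2718 to 3190.0 CPM in LB EPI. They were at 741.6 to 1182 CPM in MB ICM, 777.1 to 862.6 CPM in LB PE and 586.1 CPM in EB. MB ICM thus carried markers of both inner lineages, and so did LB PE. FN1 alone averaged 3438 CPM in MB ICM and 4593 CPM in LB PE, most of each hypoblast sum. Cumulus cell markers summed to 34.2 CPM in EB and to 10.1 and 1182 CPM in the Morula averages, and oocyte markers to 14.2 CPM in EB and 9.33 and 468.9 CPM in Morula; the part of other cells in the Morula levels was not tested. KRT8 and KRT18 have many processed pseudogene copies in humans, and whether such copies in cattle took or gave reads was not tested.

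KRT8, a type II chain, had reads in all 286 cells. Its averages stood at 1636 and 1429.8 CPM in Morula (libraries 4 and 6) and at 2452 CPM in EB (library 4). In MB TE they were 15477, 22754 and 27017 CPM (libraries 1, 2 and 3), against 1179.8, 1138 and 770.6 CPM in MB ICM (libraries 1, 2 and 5). Every trophectoderm average was thus more than 10 times any inner cell mass average. On day 9 KRT8 was at 3580.4 and 1446 CPM in LB PE and at 26444 and 20166 CPM in LB TE (libraries 3 and 5 for both), against 769.5, 1427 and 823.2 CPM in LB EPI (libraries 2, 3 and 5). The order of the class means was LB TE, MB TE, LB PE, EB, Morula, MB ICM and LB EPI. LB TE and MB TE overlapped, as did LB PE with EB and MB ICM with LB EPI, while the step between the trophectoderm classes and all others was free of overlap.

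KRT18, the type I partner of KRT8, followed the same split. It stood at 1356 and 1467 CPM in Morula and at 1289 CPM in EB. MB TE held 11098, 14679 and 26199 CPM, against 678.4, 828.7 and 423.4 CPM in MB ICM. On day 9 the averages were 1895 and 469.9 CPM in LB PE and 11891 and 6065 CPM in LB TE, against 457.1, 772.4 and 266.6 CPM in LB EPI. The trophectoderm averages of both days lay above all others, and below them Morula came next, with EB, LB PE, MB ICM and LB EPI following in that order and the last 4 classes overlapping from one to the next.

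KRT19, a small type I keratin that lacks most of the usual tail domain, was lowest in Morula and EB. It was at 21.3 and 19.6 CPM in Morula and at 96.8 CPM in EB. In MB TE it was at 1100.04, 1768 and 2762 CPM, against 186.5, 275.4 and 238.2 CPM in MB ICM. On day 9 it was at 1508 and 783.3 CPM in LB PE and at 4845 and 4253 CPM in LB TE, against 171.7, 596.1 and 349.9 CPM in LB EPI. LB TE stood above every other class without overlap, MB TE overlapped with LB PE and LB EPI with MB ICM, and EB and Morula were lowest without overlap.

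KRT7, the type II keratin used as a trophoblast marker in humans, was low throughout and highest in the inner cells. It was at 35.0 and 10.7 CPM in Morula and at 53.9 CPM in EB. In MB TE it was at 22.1, 9.19 and 11.1 CPM, against 125.8, 247.9 and 110.8 CPM in MB ICM. On day 9 it was at 69.2 and 101.3 CPM in LB PE and at 41.5 and 12.9 CPM in LB TE, against 88.5, 27.3 and 50.7 CPM in LB EPI. MB ICM stood above all other classes without overlap, and MB TE had the lowest class mean, in a range that overlapped those of Morula and LB TE.

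**Figure D1:**
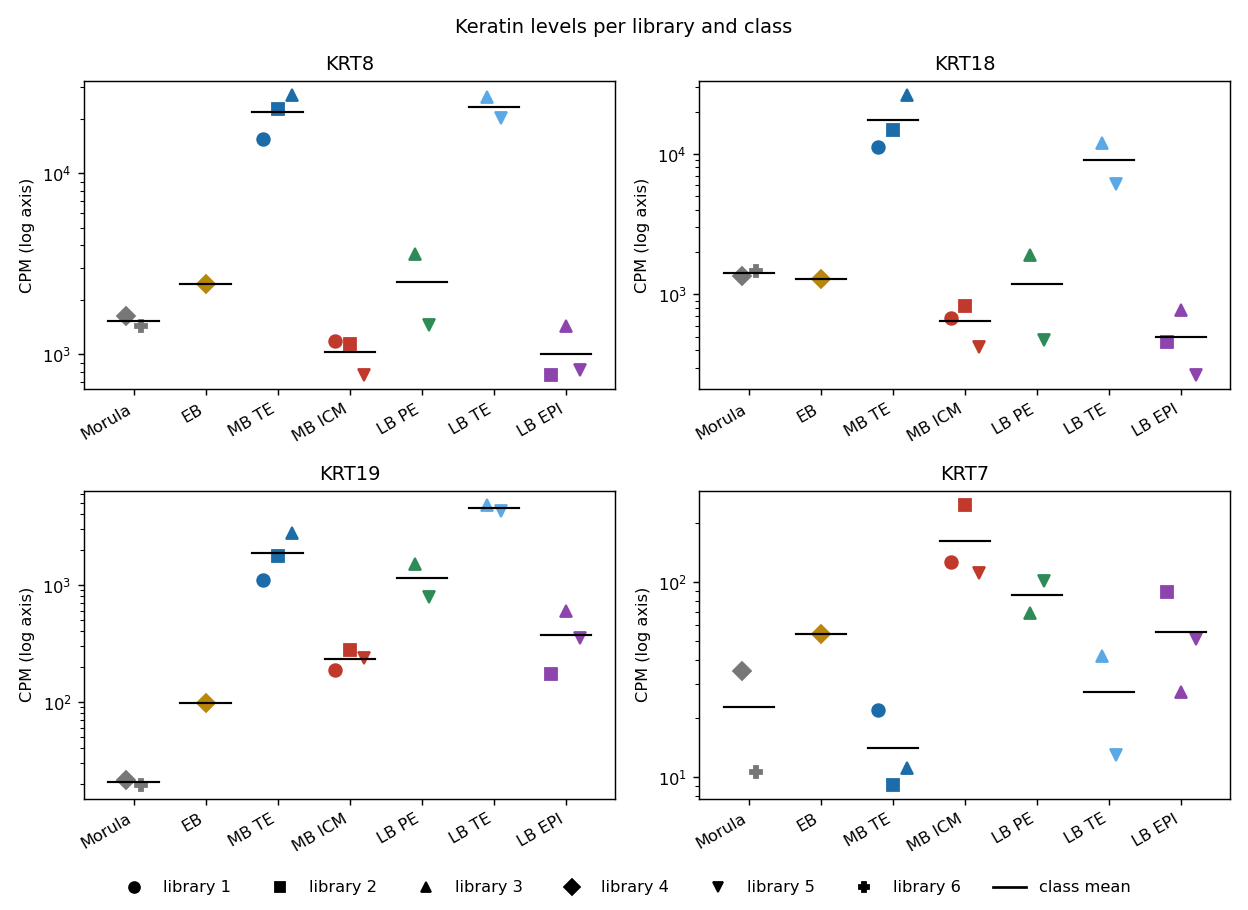
Averages of KRT8, KRT18, KRT19 and KRT7 per library and class in CPM on log axes, each point 1 library with a marker shape per library and each line the class mean. KRT8, KRT18 and KRT19 are highest in MB TE and LB TE, while KRT7 is highest in MB ICM, at 125.8, 247.9 and 110.8 CPM.

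Trophectoderm and inner cell mass of day 8 were compared to ask which keratins mark the first outer epithelium. KRT8, KRT18 and KRT19 were higher in MB TE and KRT7 was lower, so that 3 of the 4 keratins rose and 1 fell, where 10.1% of the 12538 tested genes were called in this comparison (5.97% higher and 4.11% lower, at an adjusted p under 0.05 from limma with Benjamini-Hochberg adjustment). All folds are fitted on log2(CPM + 10), which understates changes of low genes. KRT8 was 19.0-fold higher in MB TE (log2 change 4.24, SE 0.26, adjusted p = 7.57e-09), at 21749 ± 5835 CPM against 1029 ± 225 CPM in MB ICM (SD, n = 3 libraries each). KRT18 was 22.0-fold higher (log2 change 4.46, SE 0.39, adjusted p = 4.19e-06), which put KRT18 first and KRT8 second of all tested genes by the size of the rise. KRT19 was 6.83-fold higher (log2 change 2.77, SE 0.34, adjusted p = 1.8e-05), at 1876 ± 836 CPM in MB TE against 233 ± 44.7 CPM in MB ICM.

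KRT7 fell to a 6.92-fold lower level in MB TE (log2 change -2.79, SE 0.41, adjusted p = 9.51e-05), and only 16 genes fell further. Its means were 14.1 ± 6.96 CPM in MB TE and 161 ± 75.2 CPM in MB ICM (SD, n = 3 each). Within library 1, which held both classes, it was at 22.1 CPM in MB TE against 125.8 CPM in MB ICM, and within library 2 at 9.19 against 247.9 CPM. Both libraries that allow a comparison among their own cells thus gave the same direction. The same held for the other 3 keratins, with log2 differences of 3.70 and 4.31 for KRT8, 4.01 and 4.13 for KRT18 and 2.50 and 2.64 for KRT19 in libraries 1 and 2. The call for KRT19 was lost when averages of a single cell were let in (adjusted p = 0.166), and no other setting tried changed a call of this comparison.

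On day 9 the same 3 keratins were higher in LB TE than in LB EPI, and KRT7 did not pass the test. In this comparison 15.2% of the tested genes were called, 8.26% higher and 6.9% lower. KRT8 was 23.5-fold higher in LB TE (log2 change 4.55, SE 0.29, adjusted p = 1.46e-08) and stood first of all tested genes, and KRT18 was 18.4-fold higher (4.2, SE 0.43, adjusted p = 1.11e-05) and stood second. KRT19 was 12.7-fold higher (3.67, SE 0.37, adjusted p = 1.98e-06), at 4549 ± 419 CPM in LB TE (n = 2) against 373 ± 213 CPM in LB EPI (n = 3). For KRT7 the log2 change was -0.74 (SE 0.45, adjusted p = 0.322). Its 2 libraries with both classes pointed in opposite ways, with 41.5 CPM in LB TE against 27.3 CPM in LB EPI in library 3 and 12.9 against 50.7 CPM in library 5.

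Whether the contrast of trophectoderm with inner cells changed between days 8 and 9 was tested as an interaction, for which 0.367% of all genes were called (0.215% higher and 0.152% lower) and none of the 4 keratins. The day 9 minus day 8 difference of the log2 change was 0.31 (SE 0.39) for KRT8, -0.26 (SE 0.58) for KRT18 and 0.89 (SE 0.50, adjusted p = 0.622) for KRT19. For KRT7 it was 2.05 (95% interval 0.79 to 3.31, unadjusted p = 0.00275), and the limma p adjusted over all genes was 0.163. The difference of KRT7 between the days was thus tested and did not pass the adjustment. Its call on day 8 and the lack of one on day 9 therefore do not show that the days differ.

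**Figure D2:**
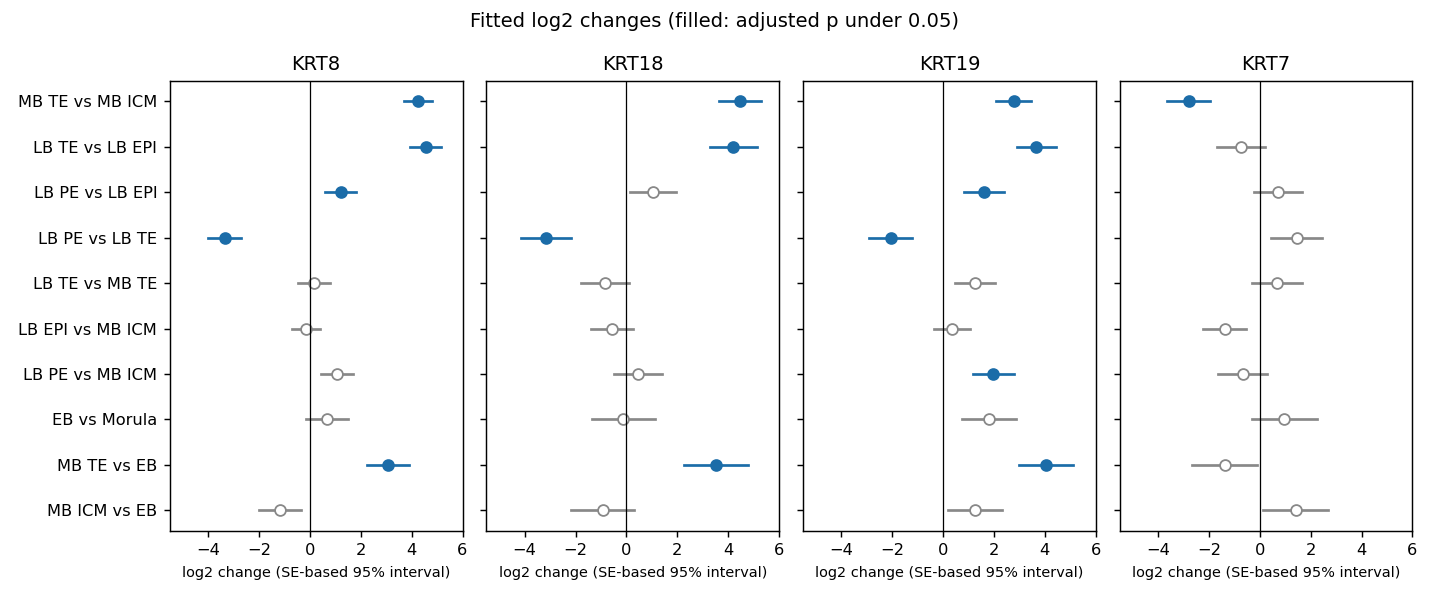
Fitted log2 changes of the 4 keratins in 10 comparisons, with bars for their 95% intervals, filled where the adjusted p of limma was under 0.05. KRT8, KRT18 and KRT19 are filled in MB TE against MB ICM, LB TE against LB EPI, LB PE against LB TE and MB TE against EB, while KRT7 is filled only in MB TE against MB ICM.

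The 4 keratins together took 2.77% to 5.60% of the reads in the MB TE averages and 3.05% to 4.32% in LB TE, against 0.154% to 0.249% in MB ICM and 0.149% to 0.282% in LB EPI. No keratin passed the test between LB TE and MB TE, where 0.191% of genes were called, 0.16% higher and 0.0319% lower (24 by limma, and 701 at an unadjusted p under 0.05). KRT8 was at 23305 ± 4439 CPM in LB TE and 21749 ± 5835 CPM in MB TE, a log2 change of 0.16 (95% interval -0.46 to 0.78). KRT18 stood lower in LB TE, at 8978 ± 4120 against 17325 ± 7891 CPM (log2 change -0.84, interval -1.78 to 0.11), with overlapping libraries. KRT19 averages did not overlap, at 4549 ± 419 CPM in LB TE against 1876 ± 836 CPM in MB TE (log2 change 1.25, SE 0.38, unadjusted p = 0.00392, adjusted p = 0.358). In library 3, the single library with both classes, KRT19 was at 4845 CPM in LB TE against 2762 CPM in MB TE, although that MB TE average rests on 3 cells.

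The balance between the partner chains shifted over the stages. Levels of different genes are not compared here, since reads were not set per length, but the ratio of a pair can be followed from class to class. The log2 ratio of KRT8 to KRT18 was 0.27 and -0.04 in Morula, 0.93 in EB, 0.48, 0.63 and 0.04 in MB TE, 0.80, 0.46 and 0.86 in MB ICM, 0.92 and 1.62 in LB PE, 1.15 and 1.73 in LB TE, and 0.75, 0.89 and 1.63 in LB EPI. Both LB TE ratios lay above all 3 of MB TE. Library 5 had the highest ratio of every class it entered, so library and class both moved with this ratio.

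The ratio of KRT19 to KRT18 moved much further. Its log2 values were -5.99 and -6.22 in Morula, -3.74 in EB, -3.33, -3.05 and -3.25 in MB TE, and -1.30 and -0.51 in LB TE. The order Morula, EB, MB TE and LB TE held without overlap, which in trophectoderm meant more KRT19 beside each KRT18 read on day 9 than on day 8. In MB ICM the ratio was -1.86, -1.59 and -0.83, above all 3 of MB TE. On day 9 it was -0.33 and 0.74 in LB PE, above both of LB TE, and -1.41, -0.37 and 0.39 in LB EPI, which overlapped with LB TE. No test was run on the ratios.

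**Figure D3:**
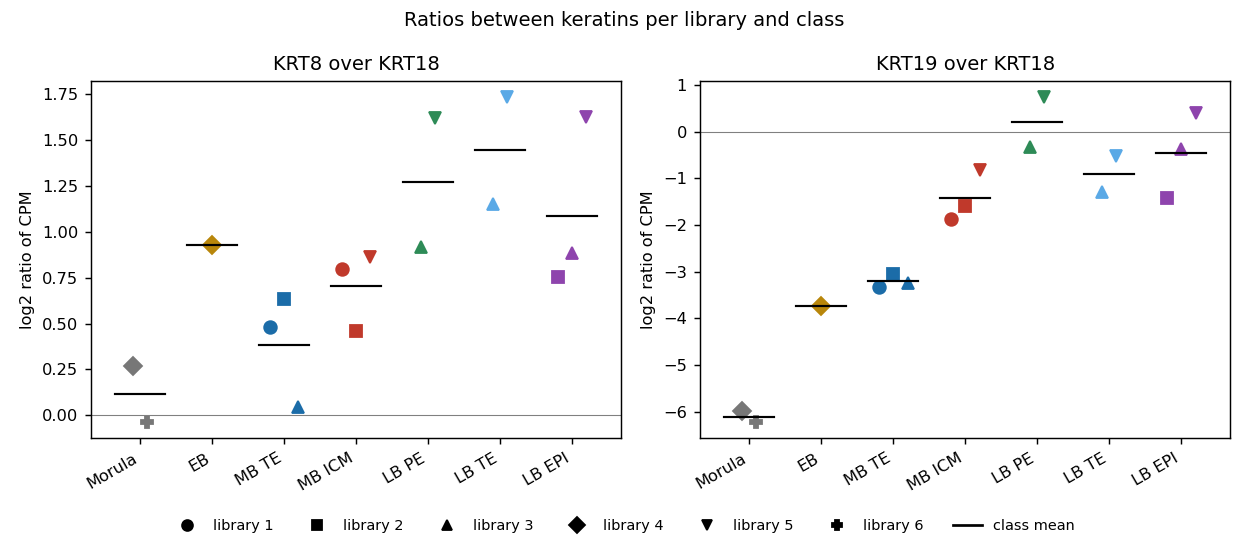
Log2 ratios of KRT8 to KRT18 (left) and of KRT19 to KRT18 (right) per library and class, each point 1 library and each line the class mean. The right panel has class means of -6.11 in Morula, -3.74 in EB, -3.21 in MB TE and -0.90 in LB TE. In both panels library 5 is the highest point of each class it enters.

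The onset of the 4 keratins was followed from Morula to EB, the day 6 and day 7 classes. KRT8 and KRT18 were already present in every Morula cell, while KRT19 and KRT7 were not. None of the 4 passed the test between EB and Morula, where 0.0798% of genes were called, 0.0399% in each direction (10 by limma, and 627 at an unadjusted p under 0.05). EB rests on a single average of 35 cells from library 4, which is assumed to vary like the other groups. Within library 4, KRT8 was at 2452 CPM in EB against 1636 CPM in Morula, KRT18 at 1289 against 1356 CPM, KRT19 at 96.8 against 21.3 CPM and KRT7 at 53.9 against 35.0 CPM. KRT19 had the largest fitted change of the 4 (log2 change 1.80, 95% interval 0.74 to 2.86, unadjusted p = 0.00205, adjusted p = 0.41), followed by KRT7 (0.97, interval -0.31 to 2.24), KRT8 (0.66, interval -0.16 to 1.48) and KRT18 (-0.12, interval -1.37 to 1.13).

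Reads of KRT19 were found in 38 of 39 EB cells (97.4%) and in 36 of 58 Morula cells (62.1%). After each cell was thinned to 20000 reads, which left out 3 EB cells and 8 Morula cells with fewer (median depths 87902 reads in EB and 141435 in Morula), the shares were 63.9% in EB (95% interval 46.2 to 79.2) and 26.0% in Morula (14.6 to 40.3). Exact binomial intervals are given, and they cover counting error only. In Morula the cells with reads were split by library, with 13 of 13 in library 4 and 23 of 45 in library 6. All 35 EB cells of library 4 had KRT19 reads too, so the shares of the classes also mix libraries. KRT7 had reads in 71.8% of EB cells and 34.5% of Morula cells, and after thinning in 38.9% (23.1 to 56.5) and 20.0% (10.03 to 33.7). The thinned levels of both genes were near that of a single read, so no change is read from these shares. Median thinned reads were 0 in Morula and 1 in EB for KRT19, and 0 in both for KRT7.

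MB TE was set against EB, whose single average (library 4) is assumed to vary like the other groups. KRT8, KRT18 and KRT19 were higher in MB TE than in EB, 3 of the 4 keratins, where 0.997% of genes were called, 0.534% higher and 0.463% lower. KRT19 was 16.5-fold higher (log2 change 4.04, SE 0.51, adjusted p = 0.000442), the largest rise of all tested genes. KRT18 was 11.5-fold higher (3.52, SE 0.59, adjusted p = 0.00771) and KRT8 8.37-fold higher (3.07, SE 0.40, adjusted p = 0.000499). For KRT7 the log2 change was -1.38 (SE 0.62, adjusted p = 0.405). In library 1, whose 2 EB cells are too few for the fit, KRT19 was at 1100.04 CPM in MB TE against 1236 CPM in EB, KRT18 at 11098 against 3696 CPM and KRT8 at 15477 against 11446 CPM. The KRT19 mean of those 2 cells (662.4 and 1809 CPM) was thus not below that of the MB TE cells of their library. No library with both classes entered the fit, so day and library cannot be told apart here, and the median log2 change of all tested genes was -0.14 in MB TE and -0.12 in MB ICM against EB (-0.01 and 0.01 with median-of-ratios scaling). The KRT18 call was lost without library 2 (adjusted p = 0.0597), with limma-voom (0.0547) and with cells of at least 50000 reads (0.144), and that depth limit took away the KRT8 call too (0.0522); the KRT19 call was lost when averages of a single cell were let in (0.0745).

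From EB to MB ICM no keratin passed the test, where 0.175% of genes were called, 0.0399% higher and 0.136% lower (22 by limma, and 957 at an unadjusted p under 0.05). The log2 change was -1.18 for KRT8 (SE 0.40, adjusted p = 0.426) and -0.93 for KRT18 (SE 0.59, adjusted p = 0.798), and it was 1.27 for KRT19 (SE 0.51, adjusted p = 0.557) and 1.41 for KRT7 (SE 0.62, adjusted p = 0.595). MB ICM averages of KRT8 lay below and those of KRT19 and KRT7 above the EB average in each of the 3 libraries. Between LB EPI and MB ICM none of the 4 was called either, where 5.1% of genes were, 3.29% higher and 1.81% lower (640, and 2145 at an unadjusted p under 0.05). KRT7 came nearest, at 55.5 ± 30.9 CPM in LB EPI against 161 ± 75.2 CPM in MB ICM (log2 change -1.37, SE 0.41, adjusted p = 0.0536), and it was lower in LB EPI in both libraries that held both classes. It passed with a pseudocount of 100 CPM (adjusted p = 0.0219), a filter of 50 CPM (0.036), median-of-ratios scaling (0.0476), limma-voom (0.00781), cells of at least 50000 reads (0.0169) and without library 6 (0.049).

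Single cells showed how evenly each class carried its keratins. In MB TE the KRT8 level ran from 4622 to 46677 CPM with a median of 17915, against 344.4 to 5067 CPM with a median of 776.6 in MB ICM. Of the 37 MB TE cells, 36 lay above the highest of the 51 MB ICM cells for KRT8 and 36 for KRT18, but 20 for KRT19. On day 9 all 31 LB TE cells lay above the highest of the 45 LB EPI cells for KRT8, KRT18 and KRT19 alike. Against the 25 LB PE cells, 31 of the 31 LB TE cells lay above the highest for KRT8, 29 for KRT18 and 21 for KRT19. For KRT7, 14 of the 51 MB ICM cells lay above the highest MB TE cell, and 48 above the MB TE median.

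Reads of KRT7 were found in 83.8% of MB TE cells and 94.1% of MB ICM cells, at median depths of 198116 and 132481 reads per cell. Thinned to 20000 reads, the shares parted to 27.0% in MB TE (95% interval 13.8 to 44.1) and 85.1% in MB ICM (71.7 to 93.8). On day 9 the thinned shares were 55.0% in LB PE (31.5 to 76.9), 48.4% in LB TE (30.2 to 66.9) and 65.1% in LB EPI (49.1 to 79.0), and their intervals overlap. The highest single KRT7 level, 1267 CPM, was in an MB ICM cell.

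**Figure D4:**
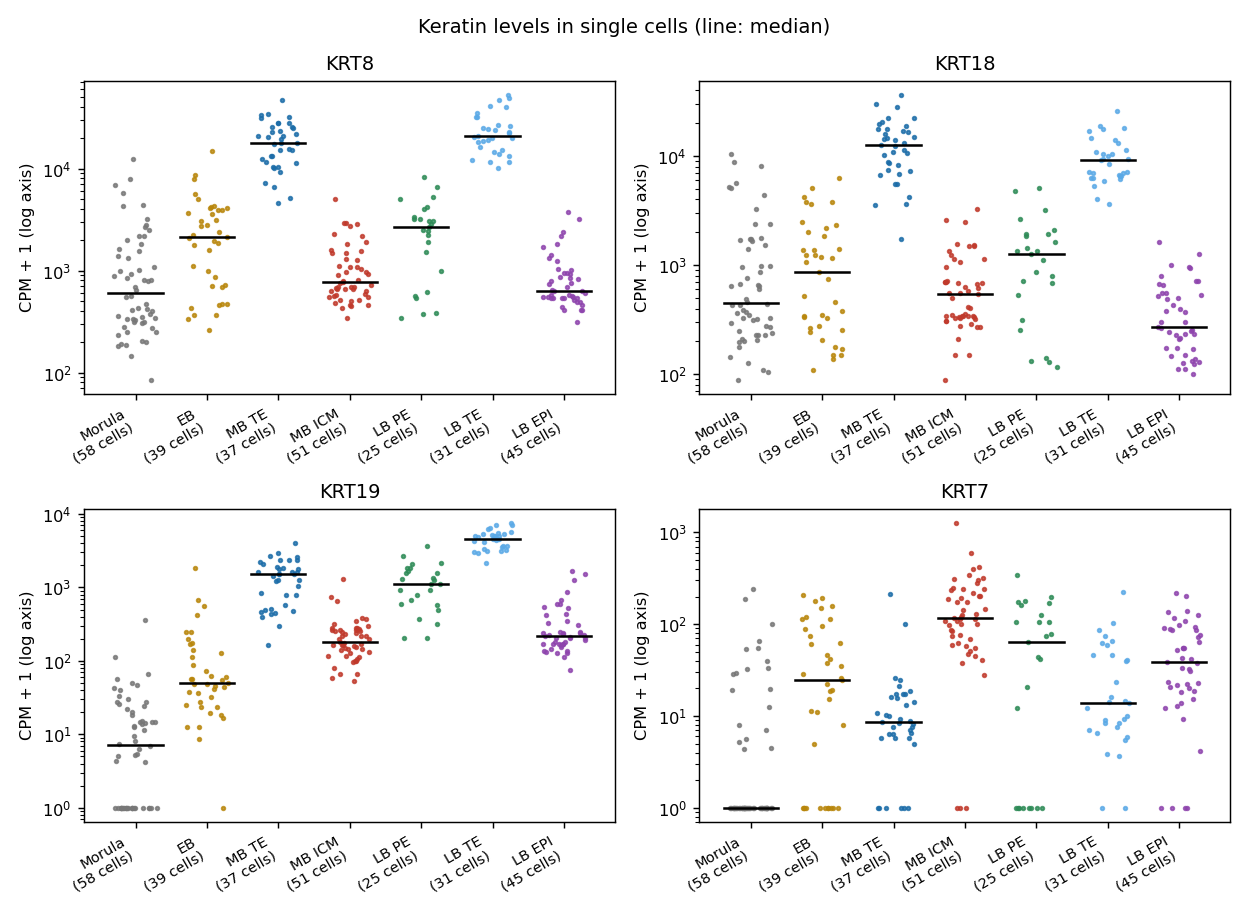
Levels of the 4 keratins in each of the 286 cells by class, as CPM + 1 on log axes, with a line at the median; cells without reads lie at 1. All 31 LB TE cells lie above every LB EPI cell for KRT8, KRT18 and KRT19, and KRT7 has its highest median, 117 CPM, in MB ICM.

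Morula and EB cells were the most uneven classes for KRT8 and KRT18. KRT8 ran from 83.4 to 12458 CPM in Morula cells, with a median of 600.5, and KRT18 from 87.3 to 10348 CPM, with a median of 446.8. The coefficient of variation was 1.5 for KRT8 and 1.55 for KRT18 in Morula and 1.01 and 1.10 in EB, against 0.49 and 0.57 in MB TE and 0.47 and 0.50 in LB TE. By the ratio of the upper to the lower quartile EB was wider than Morula, at 5.59 in EB against 5.07 in Morula for KRT8 and 7.17 against 6.44 for KRT18. EB cells likewise spread from 262.0 to 14917 CPM for KRT8, so that 5 of 39 EB cells reached above the lowest MB TE cell. For KRT19 the coefficient of variation was 0.62 in MB TE and 0.28 in LB TE. All these values pool the cells of a class over libraries, so differences between libraries enter them. Library medians of KRT19 were 1035, 1719 and 2394 CPM in MB TE (libraries 1, 2 and 3). They were 5036 and 4277 CPM in LB TE (libraries 3 and 5), so no narrowing between the days is read from this.

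Partner chains varied together from cell to cell in most classes. Across the cells of a class the Pearson correlation of KRT8 with KRT18, on log2(CPM + 10), was 0.88 in Morula (58 cells), 0.80 in EB (39 cells), 0.78 in MB TE (37 cells), 0.88 in MB ICM (51 cells), 0.95 in LB PE (25 cells) and 0.89 in LB EPI (45 cells). In LB TE it was 0.13 (31 cells), with -0.09 in the 21 cells of library 3 and 0.35 in the 9 cells of library 5. In MB TE it was 0.87 in library 1 (21 cells) and 0.32 in library 2 (12 cells). The other classes kept it between 0.79 and 0.99 in each library of at least 9 cells. Cells of a library share its preparation and each value shares its cell's depth, so these are descriptions and no p is given.

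KRT19 varied with KRT8 in EB and the inner classes. Its correlation with KRT8 was -0.17 across Morula cells and 0.67 across EB cells (0.55 in the 35 EB cells of library 4). In Morula it was -0.07 in library 4 and -0.18 in library 6. In MB ICM it was 0.65 (0.64 and 0.81 in libraries 1 and 2), in LB PE 0.80 (0.77 and 0.82 in libraries 3 and 5) and in LB EPI 0.82 (0.66, 0.96 and 0.89 in libraries 2, 3 and 5). In trophectoderm the libraries parted, with 0.38 in MB TE (0.29 and -0.46 in libraries 1 and 2) and 0.48 in LB TE (0.55 and 0.08 in libraries 3 and 5). With depth (log2 of reads per cell) KRT19 had -0.39 and -0.49 in MB ICM (libraries 1 and 2). It had -0.14 and -0.83 in LB PE (libraries 3 and 5). In LB EPI it had -0.28, -0.23 and -0.78 (libraries 2, 3 and 5). KRT8 was negative with depth in the same groups. How far depth makes KRT19 and KRT8 vary together was not tested. KRT7 ran the other way in several classes, with a correlation with KRT8 of -0.38 in EB, -0.45 in MB ICM and -0.26 in LB PE, but 0.30 in LB EPI (-0.37, 0.71 and 0.52 in libraries 2, 3 and 5). Within MB ICM it was -0.66 in library 1 and -0.37 in library 2. KRT7 had a median of 2 reads per cell in EB and LB PE and of 17 in MB ICM. With depth KRT7 had 0.42 and 0.57 in MB ICM, where KRT8 had -0.35 and -0.74 (libraries 1 and 2). In LB PE KRT7 had 0.48 and 0.54 and KRT8 -0.44 and -0.89 (libraries 3 and 5). In EB of library 4 they had 0.09 and -0.07. The part of depth in the sign between KRT7 and KRT8 was not tested.

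Before the classes of day 8 existed, KRT8 already varied with lineage genes. Across EB cells KRT8 had a correlation of 0.60 with CDX2, a trophectoderm transcription factor, and of 0.74 with DAB2, an endocytic adaptor of trophectoderm. It had -0.56 with SOX2, a pluripotency factor, and -0.74 with PDGFRA, a receptor of hypoblast cells; in library 4 alone these 4 values were 0.52, 0.71, -0.42 and -0.68. EB cells high in KRT8 were thus high in CDX2 and DAB2 and low in SOX2 and PDGFRA. NANOG, another pluripotency factor, had -0.07 with KRT8, and GATA3 0.10 (0.35 in library 4). KRT7 had the reverse sign with PDGFRA, 0.41 over all EB cells and 0.47 in library 4. In Morula cells KRT8 had 0.30 with CDX2, 0.49 with DAB2, -0.10 with SOX2 and 0.56 with the summed trophectoderm markers (0.78 in library 4 and 0.58 in library 6), while KRT19 had 0.04 with that sum.

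In the trophectoderm of day 9 the sign with CDX2 was negative. Across LB TE cells KRT8 had a correlation of -0.64 with CDX2 and of -0.68 with GATA3, another trophectoderm transcription factor. Both were negative in each library, at -0.58 and -0.70 in library 3 (21 cells) and at -0.91 and -0.63 in library 5 (9 cells). In MB TE the same correlations were -0.12 and -0.18, and KRT18 in LB TE had -0.08 and 0.07. Within LB TE, cells with more KRT8 therefore tended to have less CDX2 and GATA3. The summed trophectoderm markers had -0.11 with KRT8 over all LB TE cells, and 0.04 and -0.21 in libraries 3 and 5. The sum over the list thus showed no steady sign. With the log2 of reads per cell KRT8 had 0.47 and -0.35 in libraries 3 and 5, and the part of depth was not tested.

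Primitive endoderm, the third lineage of the day 9 blastocyst, was set against both neighbours. Against LB TE it was far lower in KRT8, KRT18 and KRT19, 3 of the 4 keratins, where 5.85% of genes were called, 2.46% higher and 3.39% lower. The log2 change was -3.34 for KRT8 (SE 0.31, adjusted p = 4.82e-06), -3.15 for KRT18 (SE 0.46, adjusted p = 0.000853) and -2.05 for KRT19 (SE 0.40, adjusted p = 0.00348). The KRT19 call was lost without library 5 (adjusted p = 0.19) and with averages of a single cell (0.482). KRT7 stood higher in LB PE, at 85.2 ± 22.7 CPM against 27.2 ± 20.2 CPM in LB TE (n = 2 each), with a log2 change of 1.45 that did not pass (adjusted p = 0.0881).

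Against LB EPI, KRT8 and KRT19 were higher in LB PE, 2 of the 4 keratins, where 5.39% of genes were called, 2.98% higher and 2.41% lower. KRT8 was 2.32-fold higher (log2 change 1.22, SE 0.29, adjusted p = 0.0166) and KRT19 3.06-fold (1.61, SE 0.37, adjusted p = 0.0139). The log2 change was 1.05 for KRT18 (SE 0.43, adjusted p = 0.193) and 0.71 for KRT7 (SE 0.45, adjusted p = 0.421). In libraries 3 and 5 all 4 keratins were higher in LB PE, by 1.32 and 0.81 for KRT8, 1.28 and 0.79 for KRT18, 1.32 and 1.14 for KRT19 and 1.09 and 0.87 for KRT7 on the log2 scale. In library 5 the 3 LB PE cells of fewest reads (6295, 9474 and 23073) held 2850 to 4161 CPM of KRT8, and the other 6 held 341 to 619 CPM. With cells of at least 50000 reads, library 5 had KRT8 at 457.4 CPM in LB PE against 539.5 CPM in LB EPI and KRT18 at 166 against 171 CPM, both lower in LB PE, and the fitted change of KRT8 was 0.53 (adjusted p = 0.639). Both calls were lost without library 2 (adjusted p = 0.093 for KRT8 and 0.0731 for KRT19) and without library 3 (0.106 and 0.0515), and KRT19 without library 5 (0.0743). Against MB ICM, where 0.702% of genes were called (0.59% higher and 0.112% lower), KRT19 alone was higher in LB PE (log2 change 1.97, SE 0.38, adjusted p = 0.0224), and that call was lost without library 1, 3 or 5 (adjusted p = 0.0552, 0.0571 and 0.233).

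Depth and trophectoderm markers moved with the keratin levels of LB PE. Across its 25 cells KRT8 had a Pearson correlation of -0.64 with the log2 of reads per cell, at -0.44 in library 3 (14 cells) and -0.89 in library 5 (9 cells). LB EPI had -0.56 (-0.20, -0.13 and -0.80 in libraries 2, 3 and 5) and MB ICM -0.52 (-0.35 and -0.74 in libraries 1 and 2), while LB TE had 0.25, with 0.47 in library 3 and -0.35 in library 5. With the summed trophectoderm markers KRT8 had 0.79 in LB PE (0.73 and 0.81 in libraries 3 and 5), 0.79 in LB EPI (0.66, 0.87 and 0.89 in libraries 2, 3 and 5) and 0.74 in MB ICM (0.73 and 0.87 in libraries 1 and 2). In trophectoderm it had 0.47 in MB TE (0.34 and 0.29 in libraries 1 and 2) and -0.11 in LB TE (0.04 and -0.21 in libraries 3 and 5). Cells of at least 50000 reads, 5 in each of libraries 3 and 5, had KRT8 at 3157 and 457.4 CPM in LB PE, against 769.5, 1427 and 539.5 CPM in LB EPI. With them the log2 change of KRT19 in LB PE against LB EPI was 1.23 (adjusted p = 0.077). KRT7 in LB PE against LB TE then passed, at 2.04 (adjusted p = 0.0108).

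**Figure D5:**
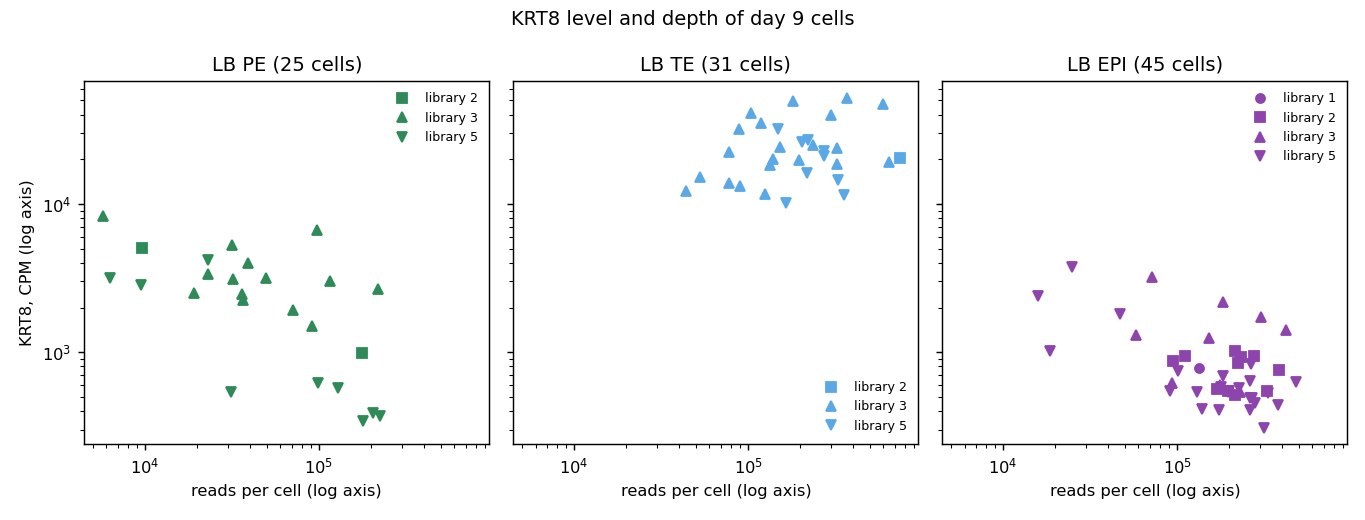
KRT8 level in CPM against reads per cell, both on log axes, for the LB PE, LB TE and LB EPI cells of day 9, with a marker shape per library. In LB PE and LB EPI the cells of few reads tend to hold more KRT8 (Pearson correlations of -0.64 and -0.56), and all LB TE cells lie above 10000 CPM.

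The level of the inner cells was also set against the trophectoderm of the same library. KRT8 in MB ICM was 7.62% and 5.0% of its MB TE level in libraries 1 and 2, and in LB EPI it was 5.40% and 4.08% of its LB TE level in libraries 3 and 5. KRT18 stood at 6.11%, 5.65%, 6.50% and 4.40% in the same libraries. KRT19 stood at 17.0%, 15.6%, 12.3% and 8.23%. The 10 trophectoderm markers ranged widely in these 4 libraries. CDX2 was at 0% to 5.91%, the interferon gene IFNT3 at 2.90% to 6.62%, SLC10A1 at 2.70% to 5.85%, DAB2 at 5.32% to 11.4%, GATA2 at 2.20% to 9.49%, PTGS2 at 4.99% to 11.3% and PLAC8 at 6.29% to 12.3%. GATA3 reached 37.6% and TFAP2A 48.1%, both in library 1, and TFAP2C was at 43.0% to 162%. KRT8 and KRT18 thus lay among the lower shares, and KRT19 between those and the highest. In LB PE, KRT8 was at 13.5% and 7.17% of LB TE in libraries 3 and 5, KRT18 at 15.9% and 7.75%, KRT19 at 31.1% and 18.4%, DAB2 at 14.0% and 6.15%, IFNT3 at 9.47% and 4.75% and TFAP2C at 64.2% and 64.9%. How far RNA or reads from trophectoderm cells of the same pool enter the inner levels of KRT8, KRT18 and KRT19 was not tested. For KRT7, whose level in MB ICM was 569% and 2698% of that in MB TE, the trophectoderm cells held less than the inner cells.

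Other keratin genes were missing from the deposited table or low in it. Of 49 other keratin symbols looked for, 14 were in the table and 4 of those passed the filter on low values, namely KRT14, KRT1, KRT5 and KRT80, all keratins of stratified or other epithelia. None of these 4 was called in any comparison. Their highest averages were 21.4 CPM for KRT14 (LB TE, library 3), 19.1 CPM for KRT1 (MB TE, library 1), 24.3 CPM for KRT5 (Morula, library 4) and 12.1 CPM for KRT80 (LB TE, library 3). The other 10 had no average above 8.18 CPM, the level of KRT10 in MB TE of library 2. KRT5 averaged 18.1 CPM in Morula and 0 in LB PE, and none of these changes passed the test. Of the filament genes outside the keratins, 13 were tested. In MB TE against MB ICM none rose and 3 fell, where 5.97% of all tested genes rose and 4.11% fell. The 3 were nestin (NES, log2 change -2.21, adjusted p = 0.00125), the neurofilament NEFL (-1.58, adjusted p = 0.02) and desmin (DES, -1.34, adjusted p = 0.0395). In LB TE against LB EPI 1 rose and 2 fell, where 8.26% of all tested genes rose and 6.9% fell. In LB PE against LB EPI 1 rose and 1 fell, where 2.98% of all rose and 2.41% fell. Such small counts among 13 genes are not read as a result about the list. The nuclear lamin LMNA was higher in LB TE (1.32, adjusted p = 0.00782) and in LB PE (1.52, adjusted p = 0.00817) than in LB EPI. The neurofilament NEFH was lower in LB TE (-1.65, adjusted p = 0.00349) and in LB PE (-1.5, adjusted p = 0.0185) than in LB EPI, and SYNC was lower in LB TE (-1.79, adjusted p = 0.00636). Of 5 tested mesenchymal genes, fibronectin (FN1), which is also a hypoblast marker, fell in MB TE against MB ICM (-3.09, adjusted p = 1.35e-07), where 4.11% of all tested genes fell.

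Several genes that anchor keratin filaments rose beside KRT8 and KRT18. All gene lists were chosen with earlier results of these data known, so their counts beside all genes are descriptions. Of 20 tested desmosome, hemidesmosome and linker genes, 10 rose and none fell in MB TE against MB ICM, where 5.97% of all tested genes rose and 4.11% fell, with a median log2 change of 1.0 against -0.04 over all tested genes. In LB TE against LB EPI 11 rose and none fell, where 8.26% of all tested genes rose and 6.9% fell (median 1.16 against -0.04). EPPK1, a plakin that binds keratins, was 3.49 higher on the log2 scale in MB TE (SE 0.34, adjusted p = 1.4e-06) and 3.04 in LB TE (SE 0.38, adjusted p = 1.25e-05). Desmoplakin (DSP), which ties keratin to desmosomes, was 2.03 higher in MB TE (SE 0.34, adjusted p = 0.000423) and 3.30 in LB TE (SE 0.38, adjusted p = 4.48e-06). The desmosomal cadherin DSC2 was 3.04 and 3.17 higher in these 2 comparisons, and the desmosome protein PERP 1.83 and 3.15.

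In LB PE, 8 of the 20 fell and none rose against LB TE (2.46% of all tested genes rose and 3.39% fell), with EPPK1 at -2.54 (adjusted p = 0.000677) and DSP at -2.49 (adjusted p = 0.000767), and 2 rose against LB EPI, where 2.98% of all rose and the median of the 20 was 0.17, namely PERP (1.59, adjusted p = 0.00099) and the tetraspanin CD151 (1.45, adjusted p = 0.0462). In MB TE against EB, which is a single average, DSC2 was 3.43 and EPPK1 2.77 higher on the log2 scale. The median change of the 20 was 0.87 there, against -0.14 over all tested genes. In EB against Morula it was 0.11, against -0.004 over all tested genes. Of 24 junction and surface genes of epithelia, 12 rose in MB TE against MB ICM, 15 in LB TE against LB EPI and 10 in LB PE against LB EPI, with none falling in any of the 3; over all tested genes 5.97%, 8.26% and 2.98% rose in these comparisons. The tight junction gene CGN was 2.56 higher in LB PE than in LB EPI (adjusted p = 0.00163).

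Of 26 tested genes for proteins known to bind, cut or signal through keratins, 1 rose and none fell in MB TE against MB ICM, near the share over all genes (5.97% higher and 4.11% lower). It was the 14-3-3 protein SFN (log2 change 2.25, SE 0.47, adjusted p = 0.00475), which rose in LB TE against LB EPI too (2.52, SE 0.52, adjusted p = 0.00304), where AKAP9 fell (-1.23, adjusted p = 0.00695). Among 28 tested transcription factors of trophectoderm and epithelia, 10 rose and none fell in each of these 2 comparisons, beside 5.97% and 8.26% of all tested genes that rose. GRHL1, an epithelial factor, was 2.17 higher in MB TE (SE 0.29, adjusted p = 4.06e-05) and 2.96 in LB TE (SE 0.32, adjusted p = 3.04e-06), and CDX2 was 2.47 and 2.19 higher. In LB PE against LB EPI, FOSL2 (1.85, adjusted p = 0.0068), KLF6 (1.52, adjusted p = 0.0103) and JUN (1.67, adjusted p = 0.0408) were among 4 factors that rose (2.98% of all tested genes rose and 2.41% fell), and TFAP2C fell (-1.11, adjusted p = 0.0282).

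The genes whose 16 averages were most like each keratin were ranked by Pearson correlation over all 12538 tested genes, as a description in which averages share libraries and classes. KRT8 was most like SLC35G1 (0.98), EPPK1 (0.98), PRSS23 (0.98), NIPAL3 (0.97) and PLLP (0.97), with KRT18 in 6th place (0.97). These places depend on the measure. By Spearman correlation EPPK1 was 6th, KRT18 14th, SLC35G1 36th, PRSS23 42nd, NIPAL3 63rd and PLLP 68th. SLC35G1 averaged 438 CPM in MB TE and 459 CPM in LB TE, against 29.4 CPM in MB ICM and 30.2 CPM in LB EPI. KRT18 was most like PRSS23 (0.98), B3GNT3 (0.98), SH3BP5 (0.98), TPD52 (0.97) and, after KRT8, EPPK1 (0.97).

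KRT19 had other companions, led by ACY1 (0.96), PLEKHO2 (0.95), BCAM (0.94), ABHD14B (0.94) and PLAU (0.94), and KRT8 was in 232nd place (0.75) and KRT18 in 646th (0.61). BCAM, an adhesion receptor for laminin, averaged 1.69 CPM in Morula, 28.4 in EB, 172 in MB TE and 300.2 in LB TE, with 150 in LB PE. KRT7 was most like SCARB1 (0.91), a lipoprotein receptor, then ACSF2 (0.91), PDE1B (0.90), PTDSS1 (0.86) and TMEM8A (0.85). SCARB1 averaged 8.24 CPM in MB TE and 51.0 CPM in MB ICM. KRT7 had a correlation of -0.65 with KRT8, -0.68 with KRT18 and -0.25 with KRT19 over the 16 averages, and the gene most opposite to it, named after its values were seen, was MPP5 (-0.92), an apical polarity scaffold that averaged 194 CPM in MB TE against 79.0 CPM in MB ICM.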

How the data were processed

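RNA of single bovine cells was reverse transcribed from oligo(dT), given a barcode in each cell's PCR and pooled into libraries, per the labels' protocols. Trim Galore, HISAT2, featureCounts, Seurat and the build ARS-UCD1.2 are named in the submitters' processing notes, with no versions given in the sources used here. The values deposited by the authors are natural log values of 1 plus a gene's reads scaled to 10000 per cell. They were turned back to CPM, and 100% of values came out as whole reads within 0.1 read. Of 288 cells listed 2 had no values, and 2 rows of a duplicated gene name were left out. In total 48628984 reads entered, with a median of 150770.5 per cell; without molecular identifiers, intervals cover counting error only. Means over at least 3 cells per library and class gave 16 averages. Averages, as log2(CPM + 10), were fitted in 1 model of 7 classes with limma 3.58.1 (trend and robust options, library as a random block with correlation 0.18; statmod 1.5.0, R 4.3.3), over 12538 genes of at least 10 CPM in at least 1 average, with Benjamini-Hochberg adjustment at 0.05. The lone EB average is assumed to vary like the other groups. The library number, taken from the labels, was used to pair the averages. Deviations from class means correlated in 16 of 16 same-library pairs (0.11 to 0.24). Classes of 2 averages give mirrored deviations, so these pairs are not separate checks, and pairs from different libraries were not compared. In data simulated for MB TE against MB ICM over 12538 genes, 0.0324% of unchanged genes were called and 19.7%, 88.1% and 100% of genes changed by 1, 2 and 3 on the log2 scale. Named genes were the 4 keratins, up to 4 called genes per list and comparison by adjusted p, the 5 most alike by correlation, and others named as examples. The keratins and all lists were chosen with earlier results of these data known. Python 3.11.15 with pandas 2.3.3, numpy 2.4.6 and scipy 1.17.1 was used.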

Additional observations from a re-analysis of the deposited data

How the results depend on the processing

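Of 776 values of keratin log2 changes under other settings, 721 kept direction and call, 31 lost the call, 11 gained it and 13 changed sign. No setting changed a call of KRT8, KRT18 or KRT7 in MB TE against MB ICM, nor any call in LB TE against LB EPI; KRT19 in MB TE against MB ICM was 2.41 with averages of at least 1 cell. In LB PE against LB EPI, KRT8 lost its call with no filter (1.22), no replicate block (1.23), at least 1 cell (1.45), means of log2 values (1.01), limma-voom (0.72) and cells of at least 50000 reads (0.53, chosen after seeing the data), and KRT19 with no filter (1.63), at least 1 cell (2.37), limma-voom (1.46) and the depth limit (1.23). With a fixed replicate block KRT18 passed there (1.05) and in LB EPI against MB ICM (-0.79). In LB PE against MB ICM, KRT19 lost its call with no filter (2.03), the fixed replicate block (1.5), at least 1 cell (2.20), limma-voom (1.78) and the depth limit (1.62). In LB PE against LB TE, KRT19 lost it with at least 1 cell (-1.88), and KRT7 passed with limma-voom (2.31) and the depth limit (2.04). KRT7 in LB EPI against MB ICM passed with a pseudocount of 100 (-0.72), a filter of 50 CPM (-1.36), median-of-ratios scaling (-1.41), limma-voom (-1.92) and the depth limit (-1.63). In MB TE against EB, calls were lost for KRT19 with at least 1 cell (3.37), for KRT18 with limma-voom (3.18) and the depth limit (3.44) and for KRT8 with the depth limit (3.03); KRT7 in MB ICM against EB passed with at least 1 cell (2.32). Changes without a call turned sign for KRT8 in LB TE against MB TE (-0.0905 with at least 1 cell, -0.0333 without library 1), KRT19 in LB EPI against MB ICM (-0.17, at least 1 cell), KRT8 and KRT18 there (0.0394 and 0.0032 with the depth limit, KRT8 also 0.0683 without library 2), KRT18 in EB against Morula (0.10 with at least 1 cell, 0.21 with means of log2 values) and KRT18 in the day interaction (0.0329 with the fixed replicate block, 0.0076 with at least 5 cells, 0.10 with at least 1). The causes were not tested. Leaving out 1 library at a time gave log2 changes of 0.92 to 1.64 for KRT8 and 1.23 to 1.98 for KRT19 in LB PE against LB EPI, -2.43 to -1.68 for KRT19 in LB PE against LB TE, -0.03 to 0.27 for KRT8 in LB TE against MB TE, -0.34 to 0.07 for KRT8 and -1.53 to -1.04 for KRT7 in LB EPI against MB ICM, -0.21 to 0.98 for KRT18 and 1.60 to 2.19 for KRT19 in LB PE against MB ICM, 3.19 to 3.74 for KRT18 in MB TE against EB and -0.51 to 0.0049 for KRT18 in the interaction. Without library 4 there is no EB value, and the fixed replicate block could not be fitted for comparisons of day 8 with EB. Numbers of called genes ran from 488 to 1694 in MB TE against MB ICM (1264), 851 to 3165 in LB TE against LB EPI (1901), 260 to 994 in LB PE against LB EPI (676), 168 to 1246 in LB PE against LB TE (734), 3 to 86 in LB TE against MB TE (24), 187 to 1138 in LB EPI against MB ICM (640), 0 to 269 in LB PE against MB ICM (88), 1 to 83 in EB against Morula (10), 28 to 403 in MB TE against EB (125), 5 to 126 in MB ICM against EB (22) and 0 to 155 in the interaction (46). Thinning to 20000 reads moved the shares of cells with KRT19 reads to 63.9% in EB and 26.0% in Morula, and with KRT7 reads to 38.9% in EB, 20.0% in Morula, 27.0% in MB TE, 48.4% in LB TE and 65.1% in LB EPI.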

Other observations

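A few cells stood in library and class groups too small to enter an average. Of the 2 EB cells of library 1, KRT8 was at 7975 and 14917 CPM, KRT18 at 3603 and 3789 CPM and KRT19 at 662.4 and 1809 CPM. Of the 2 EB cells of library 6, KRT8 was at 262.0 and 993.8 CPM and KRT18 at 148 and 1388 CPM.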
